A study of Sus scrofa domesticus with 36 samples.

Results

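Longissimus muscle libraries with the highest FBXO32 level were set against those with the lowest, in young pigs sampled after weaning. The libraries were chosen by the measured level of FBXO32, also called atrogin-1, in CPM, its count scaled by the sum of all gene counts of the library. The top 6 of the 18 muscle libraries form the high group, the 6 next to them the middle group and the bottom 6 the low group. These 18 libraries are the muscle part of a series of 36, in which each of 18 pigs also gave a library of subcutaneous backfat. All pigs were a commercial Danbred 600 by Newsham cross, and the labels name no treatment. Out of 1054 pigs, 9 were picked at or under percentile 10 of growth rate and 9 between percentiles 60 and 70, and tissues were collected 3 weeks past weaning, per the series' design text. The growth class and litter pair of a pig are not given in the labels used here, so how the 3 FBXO32 groups fall over the growth classes is not known. By the labels the pigs were aged 16 to 17 days, at weaning, so that the 2 accounts of age differ.

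Atrogin-1 is the substrate-binding part of a ubiquitin ligase of skeletal and cardiac muscle and, in mice and rats, among the genes that mark muscle wasting. It is switched on by the FOXO transcription factors when insulin and IGF signalling through AKT is low, and by glucocorticoids, fasting, disuse and inflammation. The same state is known to bring other ubiquitin ligases such as MuRF1 (TRIM63), the proteasome and autophagy into use, and to hold back protein synthesis through mTORC1.

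In the ranking CPM, FBXO32 stood at 378 in pig Sample_572 and 253 in pig Sample_735, then at 26.5 in Sample_998, 18.6 in Sample_186, 16.0 in Sample_659 and 15.5 in Sample_114. The middle group ran from 13.6 in Sample_656 to 4.10 in Sample_77. The low group held Sample_731 at 3.77, Sample_911 at 3.36, Sample_231 at 3.05, Sample_242 at 2.57, Sample_835 at 2.51 and Sample_491 at 2.20. The step into the high group was thus small, 15.5 against 13.6 CPM, and so was the step into the low group, 4.10 against 3.77 CPM. The low values rest on 12 to 21.5 counts per library, whereas Sample_572 had 1826. All further levels are CPM scaled by trimmed-mean factors, on which FBXO32 ran over 14.4 to 269.8 CPM (median 21.1) in the high group, 4.53 to 14.6 CPM in the middle group and 1.91 to 4.35 CPM (median 3.37) in the low group. On this scale Sample_659 (14.4 CPM) stood just below Sample_656 (14.6 CPM). The mean log2 difference of high minus low, on log2 CPM with a prior count of 2, was 3.60 (SE 0.79), and 2.40 (SE 0.22) without Sample_572 and Sample_735 (n = 6 and 4 high libraries, 6 low). As FBXO32 chose the groups, these values are a description and carry no test, and the same holds for every other gene in these muscle libraries.

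**Figure D1:**
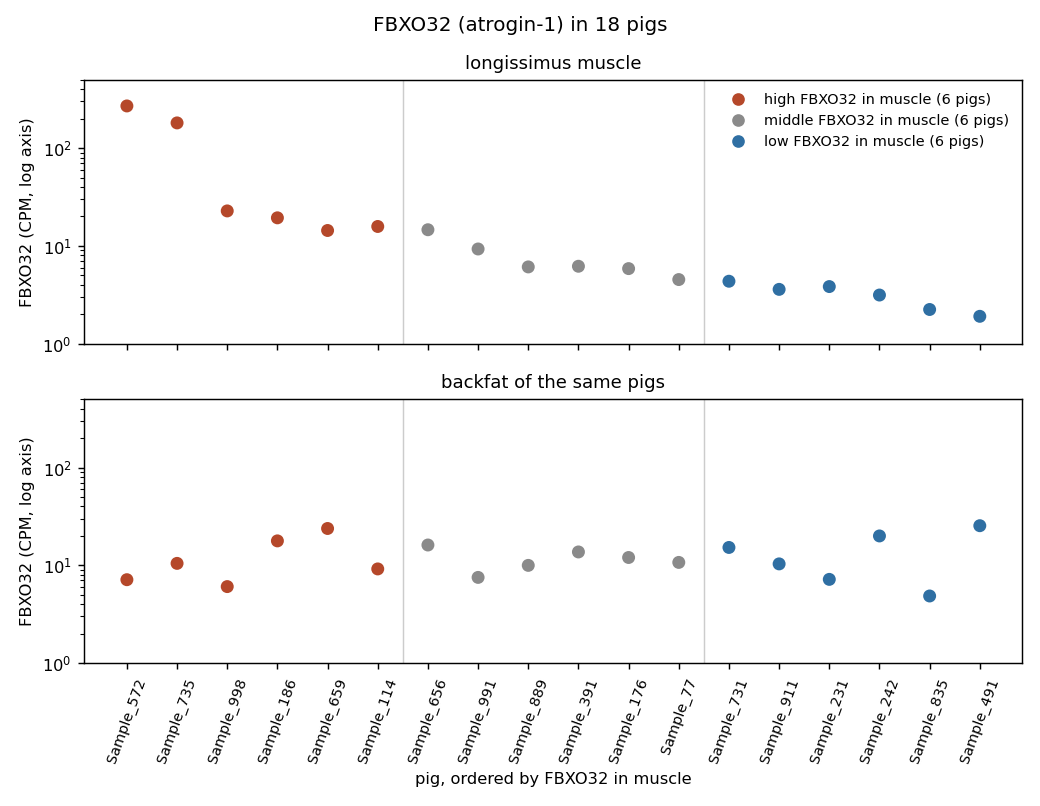
FBXO32 level in muscle (top) and backfat (bottom) of 18 pigs, in CPM scaled by trimmed-mean factors on a log axis; each point is 1 library and pigs are ordered by FBXO32 in muscle, with the high group at the left. In muscle Sample_572 and Sample_735 stand at 269.8 and 181 CPM, above the other 16 libraries at 1.91 to 22.8 CPM, while in backfat the 3 groups overlap.

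Muscle libraries held 4716541 to 6216459 gene counts, and the 3 groups overlapped in depth. Sample_572 and Sample_735 stood apart from the other 16 libraries on the first principal component (23.5% of variance; scores of -41.6 and -46.1, against -11.3 to 25.05). In Sample_572 34.1% of counts fell outside annotated genes, against 16.1 to 23.9% in the other 17. The 10 most abundant genes took 16.0% of gene counts in Sample_572 and 18.4% in Sample_735, against 23.0 to 39.3% in the others, and the trimmed-mean factor was 1.40 in both, against 0.794 to 1.16. Sample_231, in the low group, stood apart on the second component (15.7% of variance, score 48.1). Differences below are therefore also given without Sample_572 and Sample_735 (the 2 libraries). The scaling matters here. With library totals in place of trimmed-mean factors, differences of high minus low move up by about 0.31 on the log2 scale. The shift is less for genes of low count. The median of all genes moves from 0.00 to 0.30, so list medians with library totals are to be read beside 0.30. The part that depth outside genes and library makeup play in the results was not tested.

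The muscle label held in every group. The 8 measured skeletal muscle markers summed to 56121 to 181452 CPM in the high group, 138286 to 246626 in the middle group and 129165 to 290783 in the low group, with none at 0, and the 2 lowest sums were those of Sample_572 (56121 CPM) and Sample_735 (70047 CPM). In bulk tissue, fewer cells of a type and less RNA per cell cannot be told apart. Adipocyte markers (9 genes) summed to 323 to 513 CPM in the high group, 237 to 436 in the middle group and 256 to 429.8 in the low group. Macrophage markers (7 genes) summed to 46.5 to 73.1 CPM in the high group, 38.8 to 143 in the middle group and 24.5 to 149 in the low group, and endothelial markers (7 genes) to 175 to 357 CPM in the high group, 217 to 293 in the middle group and 167 to 298 in the low group. Erythroid markers (4 genes) summed to 5.76 to 29.2 CPM in the high group, 6.91 to 145 in the middle group and 10.3 to 104 in the low group. The groups overlapped in each of these sums.

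Of 9446 genes kept after the filter on low counts, 39 separated upwards: all 6 high libraries lay above all 6 low ones and the mean differed at least 1.5-fold. That is 0.413% of the genes, and 30 genes (0.318%) separated downwards. Without Sample_572 and Sample_735 the counts were 33 (0.349%) and 38 (0.402%), and 23 and 27 genes were in both sets. Groups that do not overlap stay so when these libraries are left out, so a separated gene could then fail only the 1.5-fold condition. With library totals the split changed to 173 higher and 8 lower, so that 95.6% of separated genes were on the higher side, against 56.5% with trimmed-mean factors. Of the genes separated with trimmed-mean factors, 32 of 39 higher and 8 of 30 lower ones also separated with library totals. Few genes thus set the groups apart, and how many lie on each side depends on the scaling. Leaving out 1 library moved the counts most for Sample_659, without which 99 genes separated in each direction. Without Sample_835 the counts were 63 and 60, and without Sample_731, Sample_231 or Sample_242 47, 62 and 49 genes separated downwards.

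The separated genes with a symbol and at least 10 CPM in the higher group numbered 20 higher, FBXO32 included, and 14 lower. Besides FBXO32, the 14 with the largest difference in each direction are described. Leading the higher ones was IL6R, which encodes the interleukin-6 receptor. It had 14.9 to 59.7 CPM (median 21.7) in the high group, 8.25 to 19.8 CPM in the middle group and 5.29 to 11.7 CPM (median 7.04) in the low group, a log2 difference of 1.90 (SE 0.39), and 1.36 without the 2 leading libraries. In Sample_572 and Sample_735 it stood at 59.1 and 59.7 CPM, and in the other 4 high libraries at 14.9 to 22.4 CPM. ARRDC2, an arrestin-domain adaptor of the glucocorticoid response list, had 31.6 to 133 CPM (median 47.5) in the high group, 9.95 to 43.9 CPM in the middle group and 12.7 to 21.9 CPM (median 17.2) in the low group. Its log2 difference was 1.78 (SE 0.39), and 1.22 without the 2 libraries. CASTOR2, which is related to the arginine sensor of mTORC1, had 30.3 to 100.2 CPM (median 47.2) in the high group, 16.3 to 26.1 CPM in the middle group and 11.3 to 19.8 CPM (median 15.4) in the low group. Here the log2 difference was 1.68 (SE 0.30), and 1.32 without the 2 libraries, and the high group lay above all 12 others.

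PINK1, the kinase that marks damaged mitochondria for removal, varied little among the high libraries. Its level was 144 to 204 CPM (median 180.2) in the high group, 113.7 to 149 CPM in the middle group and 89.7 to 129.6 CPM (median 99.9) in the low group. The log2 difference of 0.79 (SE 0.11) was 0.70 (SE 0.12) without Sample_572 and Sample_735 and thus nearly as large. NR3C1, the glucocorticoid receptor, ranged over 61.4 to 107 CPM (median 70.996) in the high group, 43.4 to 73.4 CPM in the middle group and 40.6 to 58.4 CPM (median 47.4) in the low group, a difference of 0.68 (SE 0.16) and of 0.60 without the 2 libraries. The lowest high library was close to the highest low one here, so that the groups only just parted. CACNA1S, the calcium channel that senses voltage in the muscle fibre, differed by 0.69 (0.58 without the 2 libraries) on the log2 scale and KCNC4, a potassium channel, by 1.02 (0.90 without the 2 libraries). NR1H3, the oxysterol receptor LXR alpha, differed by 0.90, and 0.49 without the 2 libraries. Among the others, PDGFC (a growth factor) differed by 0.91 (0.83 without the 2 libraries), RSC1A1 (a regulator of glucose transport) by 0.95 (0.69 without the 2 libraries) and ST3GAL1 (a sialyltransferase) by 0.81 (0.65 without the 2 libraries). TRNAU1AP, which serves selenoprotein synthesis, differed by 0.91 (0.57 without the 2 libraries) and NDRG2 by 0.75 (0.57 without the 2 libraries). The histone methyltransferase KMT2A differed by 0.76 (0.58 without the 2 libraries) and the Polycomb-associated PHF1 by 0.71 (0.47 without the 2 libraries). Without the 2 libraries NR1H3, TRNAU1AP, KMT2A, NDRG2, PHF1 and CACNA1S missed the 1.5-fold condition, and with library totals TRNAU1AP and PHF1 no longer separated.

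Leading the lower genes was ARG2, mitochondrial arginase. It had 2.36 to 9.95 CPM (median 4.12) in the high group, 6.90 to 28.7 CPM in the middle group and 16.4 to 137 CPM (median 20.6) in the low group, a log2 difference of -2.44 (SE 0.57), and -2.14 without Sample_572 and Sample_735. The top of the low group was Sample_231 alone, at 137 CPM, and the next low library had 30.8 CPM. PSPH, which makes serine from phosphoserine, had 0.886 to 3.86 CPM (median 2.22) in the high group, 3.04 to 13.5 CPM in the middle group and 5.92 to 41.8 CPM (median 11.8) in the low group. It differed by -2.38 (SE 0.47), and by -2.08 without the 2 libraries, and Sample_231 was again the highest. SARS1, which charges transfer RNA with serine, had 60.8 to 91.5 CPM (median 73.4) in the high group, 63.6 to 168 CPM in the middle group and 104 to 230.97 CPM (median 130.1) in the low group, a difference of -0.91 (SE 0.19), and -0.93 without the 2 libraries.

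PGK1, phosphoglycerate kinase of glycolysis, had 371 to 1666 CPM (median 947) in the high group, 1439.8 to 2927 CPM in the middle group and 1843 to 2599 CPM (median 2069) in the low group. The difference was -1.23 (SE 0.33), and -0.80 without the 2 libraries; Sample_572 was lowest. AK1, the adenylate kinase of muscle, had 479 to 1504 CPM (median 1128) in the high group, 1651 to 2263 CPM in the middle group and 1574 to 2334 CPM (median 1855) in the low group, a difference of -0.94 (SE 0.27), and -0.59 without the 2 libraries. EGF, epidermal growth factor, ran over 6.21 to 37.6 CPM (median 23.6) in the high group, 28.5 to 73.1 CPM in the middle group and 40.7 to 72.3 CPM (median 50.2) in the low group, a log2 difference of -1.49 (SE 0.47), and -0.84 without the 2 libraries. DSTN, which takes actin filaments apart, differed by -1.41, and -0.81 without the 2 libraries. SPSB2, an adaptor of another ubiquitin ligase, differed by -1.21, and -0.89. The adaptor protein APBB2 differed by -0.91 (-0.67 without the 2 libraries), the glutathione transferase GSTO1 by -0.70 (-0.76 without the 2 libraries) and the mitochondrial protein CHCHD5 by -0.65 (-0.62 without the 2 libraries). The aldehyde reductase AKR1A1 differed by -0.63 (-0.60 without the 2 libraries), PRR13 by -0.62 (-0.65 without the 2 libraries) and the mannose phosphate isomerase MPI by -0.60 (-0.43 without the 2 libraries), which then missed the 1.5-fold condition. Each of these 14 kept its sign with library totals, but only ARG2, PSPH, EGF, DSTN and APBB2 then still separated. MYMK, the myoblast fusion protein myomaker, also separated, at 1.80 to 4.35 CPM (median 3.02) in the high group, 3.91 to 12.98 CPM in the middle group and 5.08 to 15.7 CPM (median 8.38) in the low group, a log2 difference of -1.43 (SE 0.31), and -1.43 without the 2 libraries, though not with library totals.

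**Figure D2:**
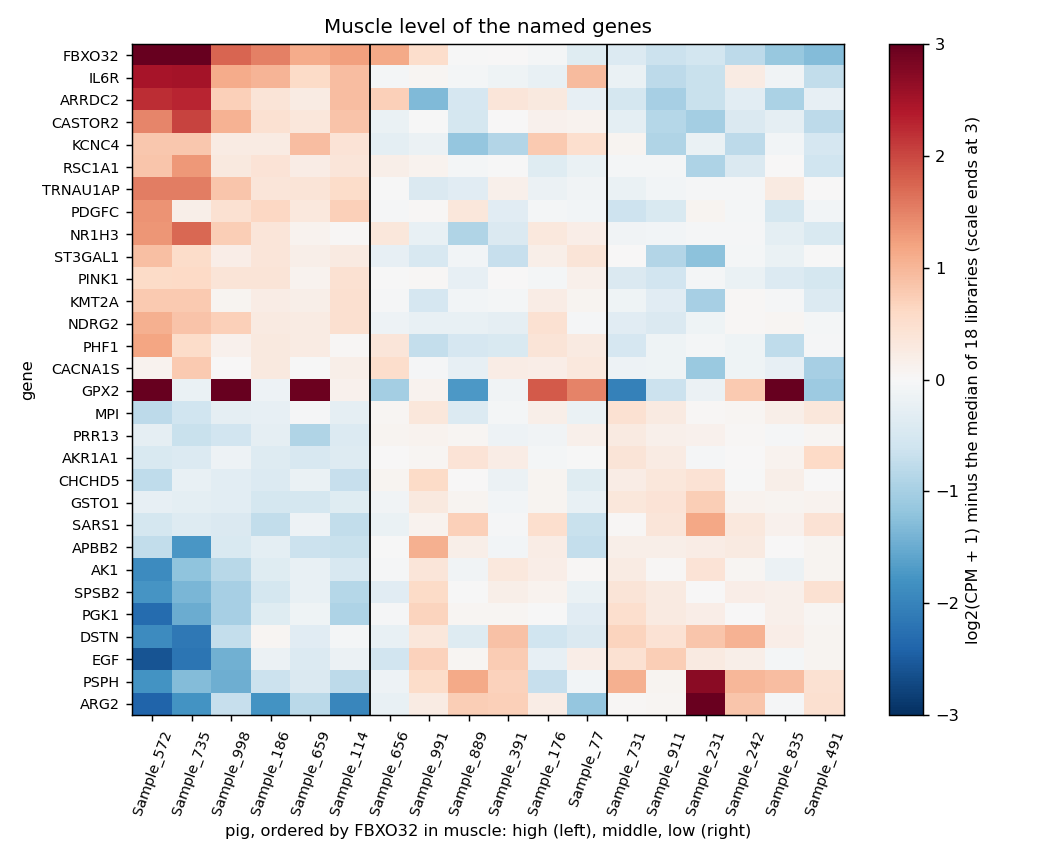
Muscle level of FBXO32, GPX2 and the 28 other named separated genes (rows) in 18 pigs (columns, ordered by FBXO32; black lines divide high, middle and low groups). Colour is log2(CPM + 1) minus the gene's median over 18 libraries, red above and blue below; for most genes the strongest colours of the high group are those of Sample_572 and Sample_735, at the left, and GPX2 is red in columns of all 3 groups.

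GPX2, a glutathione peroxidase put forward as a second marker of these libraries, overlapped between the groups. It had 121, 6.06, 90.6, 6.33, 62.1 and 7.90 CPM in the 6 high libraries in rank order, 1.48 to 28.4 CPM in the middle group, and 0.990, 4.23, 6.24, 13.04, 84.0 and 2.86 CPM in the 6 low ones. High and low values thus occurred within the high group, and Sample_835 of the low group stood among the higher ones. The log2 difference was 1.78 (SE 1.17), and 1.70 (SE 1.28) without Sample_572 and Sample_735, with overlapping groups. Spearman's rho with FBXO32 over the 18 libraries was 0.27.

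The middle libraries were ranked by the same FBXO32 values but took no part in the contrast. Within these 6 libraries rho with FBXO32 was positive for 15 of the 38 higher genes other than FBXO32 (39.5%) and for 22 of 30 lower genes (73.3%), against 49.5% of all genes. Within the middle group the sign was thus more often opposite to that of the contrast, where FBXO32 ran from 13.6 down to 4.10 CPM in the ranking values. Each such rho rests on 6 libraries only. The middle mean lay between the high and low means for 36 of these 38 higher genes (94.7%) and 27 of 30 lower ones (90%), against 43.0% of all genes. Genes chosen for a wide gap between high and low favour such a place by construction. Over all 18 libraries the highest rho values with FBXO32, among genes with a symbol and at least 10 CPM, were those of PINK1 (0.88), RSC1A1 (0.86), MTERF3 (0.86), SBNO1 (0.86), CASTOR2 (0.85) and PCMTD1 (0.85). The lowest were those of LPCAT3 (-0.83), ITGB1BP2 (-0.82), MAT2A (-0.82), PDLIM5 (-0.82), SPSB2 (-0.80) and HCFC1R1 (-0.79). MTERF3 is known to act in mitochondrial gene expression, and MAT2A makes the methyl donor S-adenosylmethionine. MTERF3 and SBNO1 differed little in size, by 0.27 and 0.39 (log2, high minus low). These libraries share the tissue and differ in depth and makeup, so the values describe these 18 libraries only.

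Among ubiquitin ligases and their partners, 22 of 32 listed genes passed the filter on low counts, called measured here, and only FBXO32 itself, which chose the groups, separated. TRIM63, or MuRF1, the ligase that acts on thick-filament proteins, had 60.0 to 342 CPM (median 150.4) in the high group, 62.1 to 133 CPM in the middle group and 33.0 to 152 CPM (median 57.4) in the low group. Its groups overlapped, with a log2 difference of 1.18 (SE 0.54), and 0.76 (SE 0.63) without Sample_572 and Sample_735. TRIM63 was 198 and 342 CPM in Sample_572 and Sample_735, but also 328 CPM in Sample_186 and only 60.0 CPM in Sample_998, so it did not rank the libraries as FBXO32 did. FBXO30, another F-box protein tied to atrophy in mice, had 24.9 to 87.2 CPM (median 41.6) in the high group, 22.6 to 34.6 CPM in the middle group and 19.5 to 32.9 CPM (median 24.9) in the low group, a log2 difference of 0.82 (SE 0.27), and 0.51 without the 2 libraries. FBXO40, a muscle F-box protein, differed by -0.42 (SE 0.29). The median of the list was 0.08, and 0.13 without the 2 libraries, beside 0.00 for all genes in both cases.

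FOXO factors and their targets had the highest median among lists with at least 5 measured genes, 0.54 over 15 of 26 listed genes, with 13 above 0 (50.5% of all genes were) and none separated; without Sample_572 and Sample_735 it was 0.24. FOXO1, which drives FBXO32 in rodent muscle, had 39.5 to 319 CPM (median 126) in the high group, 38.5 to 113.8 CPM in the middle group and 25.9 to 79.7 CPM (median 54.9) in the low group. Its log2 difference was 1.33 (SE 0.54), and 0.69 (SE 0.48) without the 2 libraries. FOXO3 stood at 127 and 66.7 CPM in the 2 libraries, against 17.5 to 35.98 CPM in the other 16, and its difference of 0.61 was 0.01 without them. EIF4EBP1, the brake on translation that mTORC1 releases, was 566 and 540.4 CPM there, against 111 to 337 CPM in the other 16. DEPP1, a FOXO-induced gene outside the list, separated at 4.38 to 19.5 CPM (median 5.20) in the high group, 1.95 to 4.96 CPM in the middle group and 1.98 to 3.50 CPM (median 2.47) in the low group, a log2 difference of 1.27 (SE 0.33), and 0.88 without the 2 libraries, where it also separated. DEPP1 was named after its values were seen, and its level was low in most libraries. PDK4, which turns fuel use from glucose to fat, had 3465 and 2128 CPM in the 2 libraries and 304 to 1859 CPM in the other 4 high ones, and 129 to 1637 CPM (median 932) in the low group, so that it did not part the groups.

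Of 31 measured autophagy genes (36 listed), PINK1 alone separated (0.413% of all genes did upwards), 23 were above 0 and the median was 0.07, or 0.03 without the 2 libraries. SQSTM1, the p62 adaptor of autophagy, had 159 to 498 CPM (median 258) in the high group, 183 to 274 CPM in the middle group and 162 to 220.2 CPM (median 186.1) in the low group, a log2 difference of 0.57 (SE 0.25), and 0.24 without the 2 libraries. The proteasome list (26 of 32) had a median of 0.10, and -0.01 without the 2 libraries, with none separated. Its member PSMD11, a lid subunit, was 214 and 238 CPM in Sample_572 and Sample_735, against 66.7 to 149 CPM in the other 16. The glucocorticoid response list (15 of 31) held 2 separated genes, ARRDC2 and NR3C1, beside 0.413% of all genes separated upwards, and had a median of 0.32, and 0.27 without the 2 libraries. FKBP5, a well known glucocorticoid target, was 314 and 248 CPM in Sample_572 and Sample_735. In the other 4 high libraries it was 50.8 to 132 CPM, overlapping the low group at 56.4 to 158 CPM (median 97.3).

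Glycolysis and glycogen genes had a median of -0.56 over 21 of 26 listed, and -0.40 without Sample_572 and Sample_735, and 16 were below 0. With library totals the median was -0.26. PKM, muscle pyruvate kinase, had 702 to 5389.5 CPM (median 3284) in the high group, 5097 to 12503 CPM in the middle group and 4781 to 10599.6 CPM (median 7896) in the low group, a log2 difference of -1.66 (SE 0.50), and -0.96 (SE 0.25) without the 2 libraries. LDHA, lactate dehydrogenase, had 866 to 6903 CPM (median 4008) in the high group, 6069.6 to 11615 CPM in the middle group and 6892 to 10363 CPM (median 8546) in the low group. Its highest high library, Sample_659, just passed the lowest low one, and the difference was -1.45 (SE 0.45), and -0.83 (SE 0.23) without the 2 libraries. PFKFB3, whose product stimulates glycolysis, went the other way: 7.18 to 41.2 CPM (median 32.2) in the high group, 2.16 to 81.1 CPM in the middle group and 3.84 to 11.01 CPM (median 5.48) in the low group, a log2 difference of 1.92 (SE 0.47), and 1.57 without the 2 libraries.

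Fast fibre contractile genes, 8 of 16 listed, had a median of -0.88, -0.50 without the 2 libraries and -0.58 with library totals, and none separated. ACTA1, skeletal actin, had 15353 and 13771 CPM in Sample_572 and Sample_735 and 42489.8 to 107045 CPM in the other 4 high libraries. It ran over 73333 to 150821 CPM in the middle group and 60319 to 191391 CPM (median 103834) in the low group, so that Sample_998 and Sample_659 (42489.8 and 48094 CPM) and the 2 leading libraries lay below the whole low group. The log2 difference of -1.36 (SE 0.56) was -0.62 (SE 0.41) without them. CASQ1, the calcium store protein of the fibre, had 898 to 4108 CPM (median 2881) in the high group, 4529.5 to 7614 CPM in the middle group and 3989.5 to 7441 CPM (median 5670.1) in the low group, a log2 difference of -1.24 (SE 0.41), and -0.69 without the 2 libraries. Its groups overlapped narrowly. DES, desmin of the intermediate filaments, spanned much the same range in each group, 7850.4 to 12464 CPM (median 10102) in the high group, 6541 to 12752 CPM in the middle group and 5136 to 16697 CPM (median 9738) in the low group. Slow troponins depended on the 2 libraries: TNNC1 differed by 0.12, and by 0.57 without the 2 libraries, and TNNT1 by -0.19 and 0.48. Actins and myosin heavy chains have near-identical copies, and how reads shared by copies were counted is not known here, so single values are uncertain.

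Integrated stress and amino acid genes, 13 of 27 listed, had a median of -0.34, -0.38 without the 2 libraries and -0.07 with library totals; 10 were below 0 and PSPH separated. ASNS, asparagine synthetase, had 3.40 to 20.3 CPM (median 9.25) in the high group, 17.7 to 69.7 CPM in the middle group and 19.4 to 115 CPM (median 37.7) in the low group, a log2 difference of -2.14 (SE 0.59), and -1.59 (SE 0.55) without the 2 libraries. ATF5, a transcription factor of that response, differed by -1.60, and -1.29, and the serine pathway enzyme PSAT1 by -1.61, and -1.22. In all 3 of these genes and in PSPH the highest library of the low group was Sample_231. Extracellular matrix genes (24 of 29) had a median of -0.32, but -0.01 without the 2 libraries. With library totals it was -0.01, beside 0.30 for all genes. COL3A1, a fibrillar collagen, was 534 and 571 CPM in the 2 libraries, against 1047 to 3651 CPM in the other 16. In the other 4 high pigs matrix genes went both ways, with LUM, a matrix proteoglycan, at -0.62 and LOX, which cross-links collagen, at 0.71 (log2, high minus low), both picked as ends of that range. Sarcomere structure genes (17 of 23) had a median of -0.27, and -0.05 without the 2 libraries. With library totals its sign turned, to 0.03, but it was still below the 0.30 of all genes.

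**Figure D3:**
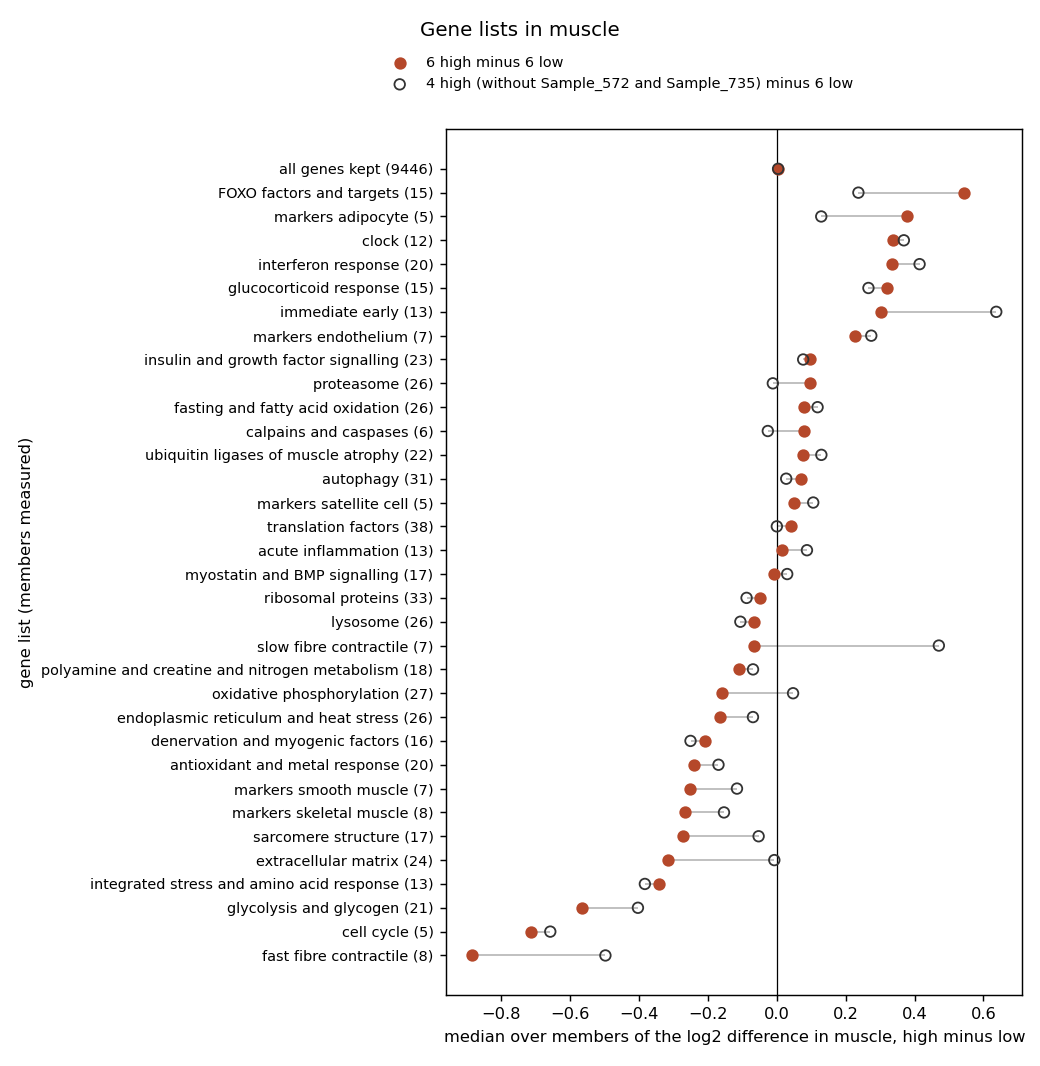
Median log2 difference of high minus low in muscle for each gene list with at least 5 measured genes (number in brackets) and for all 9446 genes; filled points are 6 high against 6 low libraries, open points leave out Sample_572 and Sample_735. Among the filled points FOXO factors and targets lie highest (0.54) and fast fibre genes lowest (-0.88); among the open points immediate early genes lie highest (0.64) and cell cycle genes lowest (-0.66).

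Insulin and growth factor signalling (23 of 36 listed) had a median of 0.10, and 0.08 without the 2 libraries, with none separated. MTOR, the kinase of mTORC1, had 63.1 to 152 CPM (median 82.5) in the high group, 59.5 to 78.1 CPM in the middle group and 32.2 to 72.2 CPM (median 60.9) in the low group, a log2 difference of 0.71 (SE 0.27), and 0.42 without the 2 libraries. Its groups overlapped, though the 2 libraries stood above all others. IGF2R, which clears IGF2, had 58.9 to 143 CPM (median 92.5) in the high group, 61.2 to 82.5 CPM in the middle group and 33.6 to 71.03 CPM (median 55.5) in the low group, a log2 difference of 0.87 (SE 0.25), and 0.60 without the 2 libraries, and its rho with FBXO32 was 0.81. IRS1, the docking protein of the insulin receptor, differed by 0.89 (SE 0.44), and by 1.19 (SE 0.46) without the 2 libraries. Myostatin and BMP signalling (17 of 28) had a median of -0.01, and MSTN (myostatin, a brake on muscle growth), chosen after its values were seen, differed by -0.35 (SE 0.77), and by -0.01 without the 2 libraries. Clock genes (12 of 20) had a median of 0.34 and 0.37, interferon response genes (20 of 32) of 0.33 and 0.41, and immediate early genes (13 of 24) of 0.30 and 0.64, with and then without the 2 libraries. None of these 3 lists held a separated gene. The immediate early gene NR4A3 reached 791 CPM in Sample_186 against 29.7 CPM in Sample_572. Fatty acid oxidation genes (26 of 36) had a median of 0.08 and oxidative phosphorylation genes (27 of 36) of -0.16, which was 0.05 without the 2 libraries and 0.15 with library totals. Denervation and myogenic genes (16 of 31) had a median of -0.21, and of 0.09 with library totals, with MYMK separated.

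The remaining lists held no separated gene, apart from IL6R in acute inflammation (13 of 29 listed, median 0.02). Cell cycle genes had a median of -0.71, -0.66 without the 2 libraries and -0.43 with library totals, but only 5 of 26 listed genes were measured. TOP2A, a topoisomerase of dividing cells, had 2.07 to 18.2 CPM (median 7.05) in the high group, 3.86 to 48.4 CPM in the middle group and 5.62 to 30.8 CPM (median 17.7) in the low group, a log2 difference of -1.22 (SE 0.58), and -0.76 without the 2 libraries. The groups overlapped widely. Lysosome genes (26 of 32) had a median of -0.07, and of 0.24 with library totals. TFEB, the transcription factor of lysosome genes, had 15.8 to 38.5 CPM (median 21.7) in the high group, 14.8 to 22.0 CPM in the middle group and 11.04 to 16.8 CPM (median 16.1) in the low group, a log2 difference of 0.65 (SE 0.21), and 0.38 (SE 0.14) without the 2 libraries. Endoplasmic reticulum and heat stress genes (26 of 32) had a median of -0.16, antioxidant and metal response genes (20 of 36) of -0.24 and polyamine, creatine and nitrogen genes (18 of 27) of -0.11. With library totals these 3 medians were 0.14, 0.06 and 0.18, beside 0.30 for all genes. Their sign thus rests on the scaling, but they lay below the median of all genes in both scalings. CKMT2, mitochondrial creatine kinase of muscle, had 131 to 597 CPM (median 299.6) in the high group, 388 to 977 CPM in the middle group and 484 to 815 CPM (median 562) in the low group, a log2 difference of -1.02 (SE 0.32), and -0.65 without the 2 libraries. Ribosomal protein genes (33 of 36) had a median of -0.05, and of 0.26 with library totals. Translation factors (38 of 40) had a median of 0.04, and EEF2, the elongation factor, had 3292 to 7132 CPM (median 4557) in the high group, 2375 to 4711 CPM in the middle group and 1712 to 3669.5 CPM (median 3398) in the low group, a log2 difference of 0.61 (SE 0.23), and 0.41 without the 2 libraries. Neither gene parted the groups. Calpains and caspases (6 of 14) had a median of 0.08; the muscle calpain CAPN3 differed by 0.32 (SE 0.22), and by 0.09 without the 2 libraries.

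**Figure D4:**
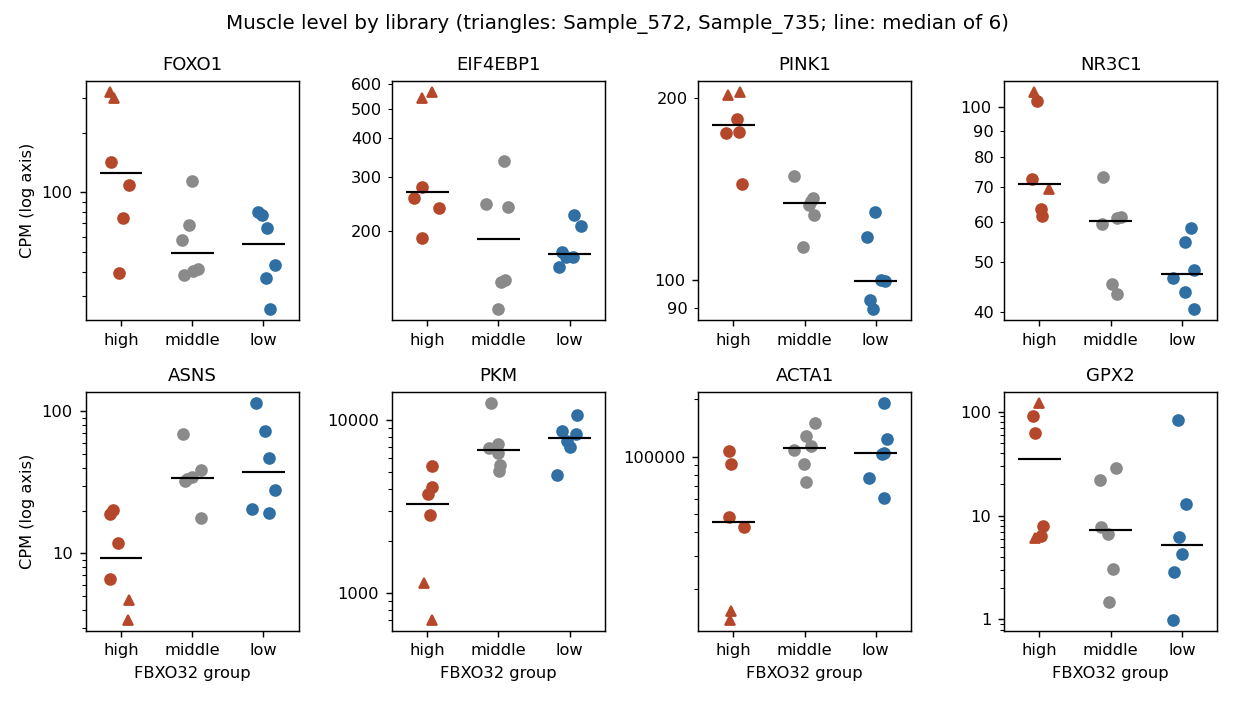
Muscle level (CPM, log axis, a separate range in each panel) of 8 genes in the high, middle and low FBXO32 groups; each symbol is 1 of 6 libraries, triangles mark Sample_572 and Sample_735, and the line is the median. PINK1 and NR3C1 part the high from the low group. FOXO1, EIF4EBP1, PINK1, ASNS, PKM and ACTA1 set the 2 triangles apart from the other 16 libraries, and GPX2 scatters in all groups.

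Sample_572 and Sample_735 were also set against the other 16 libraries, since both lay far above them in FBXO32. Of the 9446 genes, 788 (8.34%) were higher in both than in all other 16 libraries, and 620 (6.56%) were lower. Scaling bears strongly on these counts: with library totals 35.5% of genes were higher and 0.921% lower. Of the separated genes, 27 of 39 higher and 14 of 30 lower ones were beyond the other 16 in both libraries. FOXO factors and targets had 9 of 15 members above all 16 (60%, and 73.3% with library totals), with none below. Autophagy had 9 of 31 above (29%, and 67.7% with library totals), the proteasome 7 of 26 (26.9% and 65.4%), insulin and growth factor signalling 5 of 23 (21.7% and 39.1%) and translation factors 7 of 38 (18.4% and 60.5%). Of the glucocorticoid list 2 of 15 were above (20% with library totals), and of the ubiquitin ligases 4 of 22 (45.5% with library totals), FBXO32 among them, by which these libraries were ranked.

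Below all 16 in both libraries lay 10 of 21 glycolysis and glycogen genes (47.6%), 10 of 24 matrix genes (41.7%), 7 of 17 sarcomere genes (41.2%), 5 of 8 fast fibre genes (62.5%) and 4 of 13 integrated stress genes (30.8%), and none of these lists had a member above on this scale. With library totals, 5 of 21 glycolysis genes (23.8%), 4 of 8 fast fibre genes (50%), 1 of 13 integrated stress genes (7.69%), 1 of 17 sarcomere genes (5.88%) and 1 of 24 matrix genes (4.17%) were below, while 3 of 17 sarcomere genes (17.6%) and 1 of 21 glycolysis genes (4.76%) were above. Among all genes 35.5% were above and 0.921% below with library totals. More sarcomere genes thus lay above than below on that scale. Beside all genes, each of these lists still had a smaller share above and a larger share below, as with trimmed-mean factors. LIPE, hormone-sensitive lipase, stood at 171 and 135 CPM, against 11.7 to 43.9 CPM in the other 16. Of the 5 measured adipocyte markers LIPE alone lay above all 16 and none below. Between the high and low groups 3 of the 5 differed upwards and 2 downwards. LPIN1, lipin of lipid synthesis and signalling, stood at 312 and 104 CPM, against 18.8 to 59.1 CPM. On the other side, CNN1, calponin of smooth muscle, had 21.0 and 15.0 CPM against 48.6 to 283 CPM, and PNCK, a calcium-dependent kinase, had 0.148 and 0.303 CPM against 1.75 to 44.0 CPM. Of the 7 measured smooth muscle markers only 2, CNN1 among them, lay below all 16, and none lay above. The median log2 difference of these 7, high minus low, was -0.25, and -0.12 without Sample_572 and Sample_735. The PNCK values of Sample_572 and Sample_735 rest on very few counts and are uncertain. LPIN1 and PNCK were named after their values were seen. Interferon and immediate early genes had no member beyond the other 16 in either direction.

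**Figure D5:**
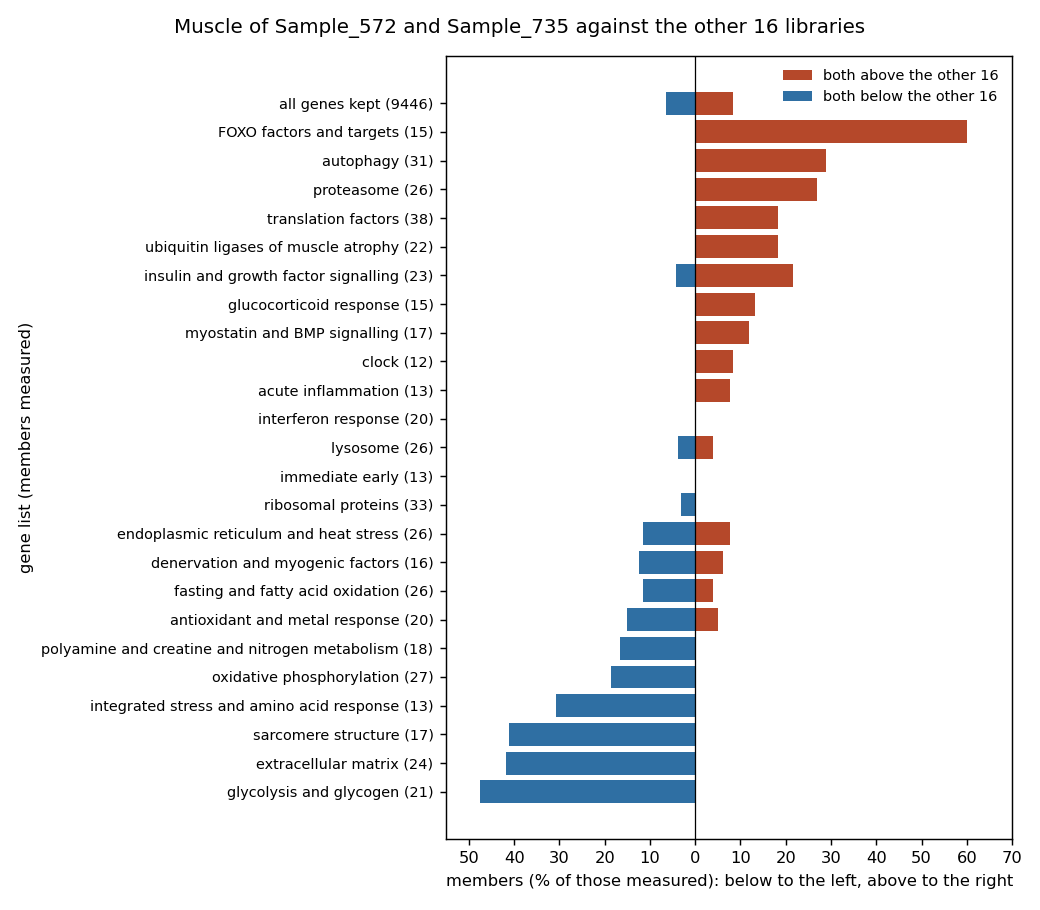
Share of measured members (in %, number in brackets) for which both Sample_572 and Sample_735 lay above (right) or below (left) all other 16 muscle libraries, for lists with at least 12 measured genes and for all genes. FOXO factors and targets reach 60% above, against 8.34% of all genes, and glycolysis and glycogen 47.6% below, against 6.56% of all genes; levels are scaled by trimmed-mean factors.

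Backfat took no part in choosing the pigs, so the 6 high and 6 low pigs could be tested there. FBXO32 in backfat averaged 12.4 ± 6.95 CPM in the high pigs, 11.7 ± 3.01 in the middle pigs and 13.8 ± 7.89 in the low pigs (SD, n = 6 each). The log2 difference of high minus low was -0.11 (SE 0.47), with a two-sided exact permutation p = 0.829 over 924 arrangements. Over the 18 pigs FBXO32 in muscle and backfat had a Spearman's rho of -0.20 (permutation p = 0.425) and a Pearson's r of -0.20 (permutation p = 0.438). Without Sample_572 and Sample_735, the 2 pigs farthest from the median, rho was -0.08 (permutation p = 0.761) and r was -0.01 (permutation p = 0.966). Adjusted over these 2 relations, p was 0.761 for both rho values, and 0.877 and 0.966 for r. No relation between the tissues was detectable with 18 pigs.

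Across 12991 genes tested in backfat with edgeR's quasi-likelihood test, none was called higher (0%) and none lower (0%) at an adjusted p of 0.05, and the smallest Benjamini-Hochberg adjusted p was 0.999726. At an unadjusted p of 0.05, 431 of 12991 genes passed in edgeR and 556 in DESeq2, where 19568 genes had an adjusted p and none was called. Both are a smaller share than the 0.05 that chance alone would give. Of the genes that separated in muscle, 36 higher ones were measured in backfat, of which 20 were above 0 with a median of 0.03. Of 27 lower ones, 4 were above 0 with a median of -0.25. Among all 12991 genes tested 6363 were above 0, and all genes had a median of 0.00. The lower ones include muscle genes such as AK1, and all 8 skeletal muscle markers also had lower means in backfat of the high pigs (below). The part that muscle RNA in backfat plays in this count was not tested. ARRDC2 had 101 and 127 CPM in the backfat of Sample_572 and Sample_735, and 63.5 to 133 CPM in the high group and 50.9 to 98.6 CPM in the low group, a log2 difference of 0.46 (SE 0.19) with an edgeR adjusted p of 0.999726. PINK1 in backfat ran over 34.6 to 62.0 CPM in the high group and 32.6 to 95.0 CPM in the low group, and NR3C1 over 87.6 to 130.3 CPM in the high group and 87.3 to 129 CPM in the low group.

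Muscle genes in the backfat libraries had lower means in the high pigs, without a call. All 8 skeletal muscle markers were below 0, with a median log2 difference of -2.08, and likewise all 15 sarcomere genes (median -2.14), all 8 fast fibre genes (-1.98) and all 7 slow fibre genes (-2.85). ACTA1 in backfat ran over 177 to 1556 CPM in the high group and 107 to 28415 CPM in the low group, with groups that overlapped. Its log2 difference was -3.17 (SE 1.16) with an edgeR adjusted p of 0.999726. AK1, lower in the muscle of the high pigs, ran over 16.4 to 36.6 CPM in the high group and 18.4 to 282 CPM in the low group in backfat. With ACTA1 in backfat as a covariate, 0 genes were called in either direction.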

How the data were processed

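RNA of 18 muscle and 18 backfat libraries was measured by paired-end RNA sequencing. A single table, deposited by the authors, holds unnormalised expected counts for 25322 Ensembl pig genes. Per the submitters' processing notes, reads went through GSNAP and HTSeq; versions, build and annotation: not given in the sources used here. Because 35.1% of values end in 0.5, the counts were rounded for tests, ties to even. The 5 lines naming no gene stayed out (no annotated gene: 16.1 to 34.1% of a muscle library, 28.2 to 53.8% of a backfat library). Strand is not stated, so overlapping and antisense genes could not be told apart. Symbols matched 11804 genes.

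Levels are CPM with trimmed-mean factors over the 18 libraries of a tissue, log2 with a prior count of 2. Muscle groups were compared without a test; SE comes from both group SDs. Backfat was tested with edgeR 4.0.16 in R 4.3.3 (robust quasi-likelihood fit, default filter, Benjamini-Hochberg), with DESeq2 1.42.0 as an alternative. The edgeR script was tested on simulated data. Correlations used 100000 permutations. Figures used Matplotlib 3.10.9.

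The members, the 38 gene lists and the tests were chosen with earlier results of these data known. Named genes are FBXO32, GPX2, the 14 separated genes with the largest difference in each direction (symbol, at least 10 CPM), list members that separated (up to 6) or were most abundant (up to 3 a list), and the 6 highest and 6 lowest in rho. The genes ASNS, ATF5, CASQ1, DEPP1, FBXO30, FOXO1, FOXO3, IGF2R, IRS1, LDHA, LOX, LPIN1, LUM, MSTN, MTOR, PFKFB3, PKM, PNCK, PSAT1, PSMD11, RORA, TFEB and TRIM63 were named after their values were seen.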

Additional observations from a re-analysis of the deposited data

Results flagged for a closer look

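Among the 30 genes named for FBXO32, GPX2 or the size of their difference, 90 groups of 6 muscle libraries were checked for a library that stood apart from the other 5 in its group, by a gap of more than 0.625 of the group's range in log2 level. Chance flags about 1 in 20 groups, and 6 were found. In the high group, AKR1A1 in Sample_998 was 12.2 CPM, with the next library at 10.3 CPM, and APBB2 in Sample_735 was 27.9 CPM, with the next at 57.3 CPM. In the middle group, IL6R in Sample_77 was 19.8 CPM, with the next at 10.2 CPM, and NDRG2 in Sample_176 was 241.9 CPM, with the next at 172 CPM. In the low group, Sample_231 was highest in both ARG2 (137 CPM, next 30.8 CPM) and SARS1 (230.97 CPM, next 139.5 CPM), and without it 44 genes separated upwards and 62 downwards.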

How the results depend on the processing

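The counts of separated muscle genes, 39 higher and 30 lower, became 173 and 8 with library totals, 62 and 66 when pigs were ranked by trimmed-mean FBXO32 (Sample_656 in place of Sample_659), 79 and 70 with the top 5 against the bottom 5, 0 and 0 with the top 9 against the bottom 9, 54 and 46 with no filter on low counts and 10 and 16 with a fold of 2. Smaller groups overlap less by construction. Without Sample_231, chosen after seeing the data, they were 44 and 62, and without Sample_572 and Sample_735, also chosen afterwards, 33 and 38. Leaving out each library in turn gave 36 to 99 higher and 30 to 99 lower genes. For the 95 named genes followed through the alternatives, 1871 of 1900 differences stayed within the spread of their libraries and 29 moved beyond it. The 1900 include the setting with no filter, which leaves each difference as it is, and leave out Sample_231 under 2 settings. No separated gene changed sign. Where libraries were only left out this could not happen, since the groups of such a gene do not overlap. In backfat 0 genes were called under every alternative run. The backfat difference of FBXO32, -0.11, turned to 0.00897 with the top and bottom 5 pigs and to 0.0586 without Sample_572 and Sample_735, and ran from -0.355 to 0.103 with single pigs left out, where the exact permutation p ran from 0.433 to 0.976. No paired analysis was possible because the high and low groups hold different pigs, and the muscle comparison has no test. Depth limits FBXO32 in the low group, at 12 to 21.5 counts a library.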

Other observations

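A few values in the same muscle libraries were not given above. NR4A3, an immediate early nuclear receptor with its peak in Sample_186, had 114.4 CPM in Sample_114, and ATF3, of the same list, had 1540.1 CPM in Sample_186. Developmental myosin MYH3 had 139 to 478 CPM (median 344) in the high group, 480.3 to 868 CPM in the middle group and 348 to 1285 CPM (median 573) in the low group, and MYH8, the perinatal form, had 8076 to 32428 CPM (median 17979), 33619 to 56743 CPM and 21963 to 53674 CPM (median 33968) in the same order of groups. Haemoglobin HBB had 5.15 to 26.5 CPM (median 12.1) in the high group, 5.29 to 139 CPM in the middle group and 8.90 to 98.9 CPM (median 50.8) in the low group. The nuclear receptor RORA, of the clock list, differed by 1.08 (SE 0.32) (log2, high minus low), and by 0.75 without Sample_572 and Sample_735, with overlapping groups.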
